A study of Mus musculus with 18 samples.

Results

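The genes described here are 43 solute carriers of the mouse proximal tubule, out of 45706 genes counted in 18 whole kidneys removed after ischemia/reperfusion (I/R) injury. They were chosen by name, as membrane transporters that textbooks place in this part of the nephron, and were matched to the count files by Ensembl identifier. The rule itself used no measured value, but the list was chosen with earlier results of these data known. Its counts beside those of all genes are therefore description only. Of the 43, 13 are known from the early tubule (segments S1 and S2), 10 from the late tubule (segment S3), and 20 were given to neither segment.

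The kidneys came from adult male C57BL/6 mice of 2 cohorts, 5 *Cxcl12* KO and 3 *Cxcl12* control mice, and 5 *Myc* KO and 5 *Myc* control mice. In each cohort all mice carried the floxed target gene and the Pax8rtTA transgene and were given doxycycline, and only the KO mice also carried TetOCre, so that Cre is made under the control of *Pax8* in the tubule cells and not in vessels, stroma or blood cells. The blood flow of both kidneys was stopped for 22.5 min and restored for 12 h, and no uninjured kidney was sequenced. The comparisons ask how deletion of each target gene, which encode a chemokine (*Cxcl12*) and a transcription factor (*Myc*), changed gene expression early after injury.

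The proximal tubule takes back most of the filtered glucose, amino acids, phosphate, bicarbonate and organic acids, and secretes drugs and metabolites into the urine. Transport runs in series, with sodium-coupled carriers in the brush border that load the cell and exchangers or facilitators in the basolateral membrane that unload it into the blood. Early segments carry high-capacity and late segments high-affinity carriers, and the straight S3 segment is the part most easily damaged by ischemia.

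Each kidney had from 12918220 to 29749500 reads assigned to genes, and the lowest count of any of the 43 genes in any kidney was 55. Levels are given as CPM, the reads of a gene per megaread on genes, scaled by the TMM method over all kidneys. Less than 5% of reads stayed unmapped in 6 kidneys, which also had the most reads. This deeper group held 2 *Cxcl12* KO, 2 *Myc* KO, 2 *Myc* control and 0 *Cxcl12* control kidneys, and neither the labels nor the methods name it as a batch. The methods mention a correction for batches in the authors' own analysis without saying which kidneys formed them, and the deposited counts carry no such correction. The target genes were lower with their own deletion in every KO kidney than in any control kidney of the cohort, and the log2 fold change of *Cxcl12* was -0.73 (edgeR adjusted p = 0.094) and that of *Myc* -1.61 (edgeR adjusted p = 8.8e-05). Nothing in the labels says whether kidneys of a group were handled apart, so that p-values measure the spread between these mice. In whole kidneys, fewer cells of a type and less RNA per cell cannot be told apart.

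To show the sequence from which these carriers are transcribed, the 250 bases before the start site were taken from RefSeq (GRCm38.p6) for the 35 members listed there. *Slc6a18*, *Slc23a1*, *Slc5a2*, *Slc22a7*, *Slc47a1*, *Slc7a13*, *Slc5a12* and *Slc13a1* were not matched. Each window was searched on both strands for CAAAGTC, part of the site of the hepatocyte nuclear factor HNF4, and for CACGTG, the palindromic E-box to which MYC with its partner MAX can bind. No letters of these motifs overlap in the windows shown. The following 4 windows are printed 5′ to 3′ on the strand of the gene, with motif letters in capitals. *Slc3a1* stands for a late gene with the HNF4 letters, *Slc13a3* and *Slc9a3* for genes with an E-box that DESeq2 called in 1 cohort, and *Slc2a2* for the largest KO effect. The windows lie at chr17:85028097-85028346 (*Slc3a1*, plus strand), chr2:165473198-165473447 (*Slc13a3*, minus strand), chr13:74121163-74121412 (*Slc9a3*, plus strand) and chr3:28697653-28697902 (*Slc2a2*, plus strand).
Slc3a1: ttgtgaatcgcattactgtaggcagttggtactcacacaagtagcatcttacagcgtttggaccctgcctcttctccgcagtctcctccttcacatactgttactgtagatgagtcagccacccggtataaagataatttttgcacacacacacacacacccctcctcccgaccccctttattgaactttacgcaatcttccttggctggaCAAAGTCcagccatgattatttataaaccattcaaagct
Slc13a3: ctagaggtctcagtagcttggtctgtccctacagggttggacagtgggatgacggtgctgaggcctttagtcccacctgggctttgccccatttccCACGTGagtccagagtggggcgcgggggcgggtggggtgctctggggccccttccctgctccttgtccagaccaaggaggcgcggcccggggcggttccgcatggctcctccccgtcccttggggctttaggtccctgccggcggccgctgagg
Slc9a3: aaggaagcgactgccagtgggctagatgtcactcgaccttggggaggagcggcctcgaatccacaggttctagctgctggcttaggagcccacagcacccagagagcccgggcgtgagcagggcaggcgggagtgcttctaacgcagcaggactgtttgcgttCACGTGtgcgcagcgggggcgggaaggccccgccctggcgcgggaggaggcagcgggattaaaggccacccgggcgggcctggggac
Slc2a2: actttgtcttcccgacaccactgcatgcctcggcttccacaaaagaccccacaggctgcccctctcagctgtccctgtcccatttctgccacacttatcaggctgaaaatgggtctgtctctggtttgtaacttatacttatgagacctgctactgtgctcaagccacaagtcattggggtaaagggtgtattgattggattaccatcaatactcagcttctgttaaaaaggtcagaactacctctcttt

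The HNF4 letters occurred in *Slc3a1* and *Slc7a7*, 2 of 35 windows (5.7%), against 3.8% of 27025 windows of all genes. The E-box occurred in 5 of 35 (14.3%) against 6.0% of all, in *Slc13a3*, *Slc9a3*, *Slc5a1*, *Slc22a4* and *Slc20a1*. Log2 fold changes in *Myc* KO kidneys were 0.09, 0.69, -0.22, -0.10 and 0.02 for these 5 genes in that order. The E-box genes thus spanned both directions, and the window of *Slc2a2* held neither motif. A match describes letters only, and motif and response were not compared by a test.

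All 43 carriers were detected in every kidney. Levels between genes were compared as CPM per kilobase of exon. By the median over the 8 control kidneys the highest were *Slc27a2*, which imports and activates very long chain fatty acids, at 421.8, *Slc34a1*, the main phosphate carrier of the brush border, at 403.5, and *Slc22a12*, the urate exchanger, at 232.8 CPM per kilobase. The lowest were the fructose carrier *Slc2a5* at 5.06 and the organic anion carrier *Slc22a13* at 5.21 CPM per kilobase. *Slc27a2* ranged from 317.6 to 526.0 and *Slc34a1* from 358.3 to 452.0 CPM per kilobase in control kidneys, so the order of these 2 genes lay within their spread. *Slc22a12* ranged from 167.1 to 343.8 CPM per kilobase and stayed below the lowest *Slc34a1* value. The early glucose carrier *Slc5a2* exceeded the late carrier *Slc5a1* in control kidneys, at 76.2 to 132.2 against 12.9 to 31.6 CPM per kilobase. Among phosphate carriers, *Slc34a1* exceeded *Slc34a3* at 9.75 to 14.5 CPM per kilobase.

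**Figure D1:**
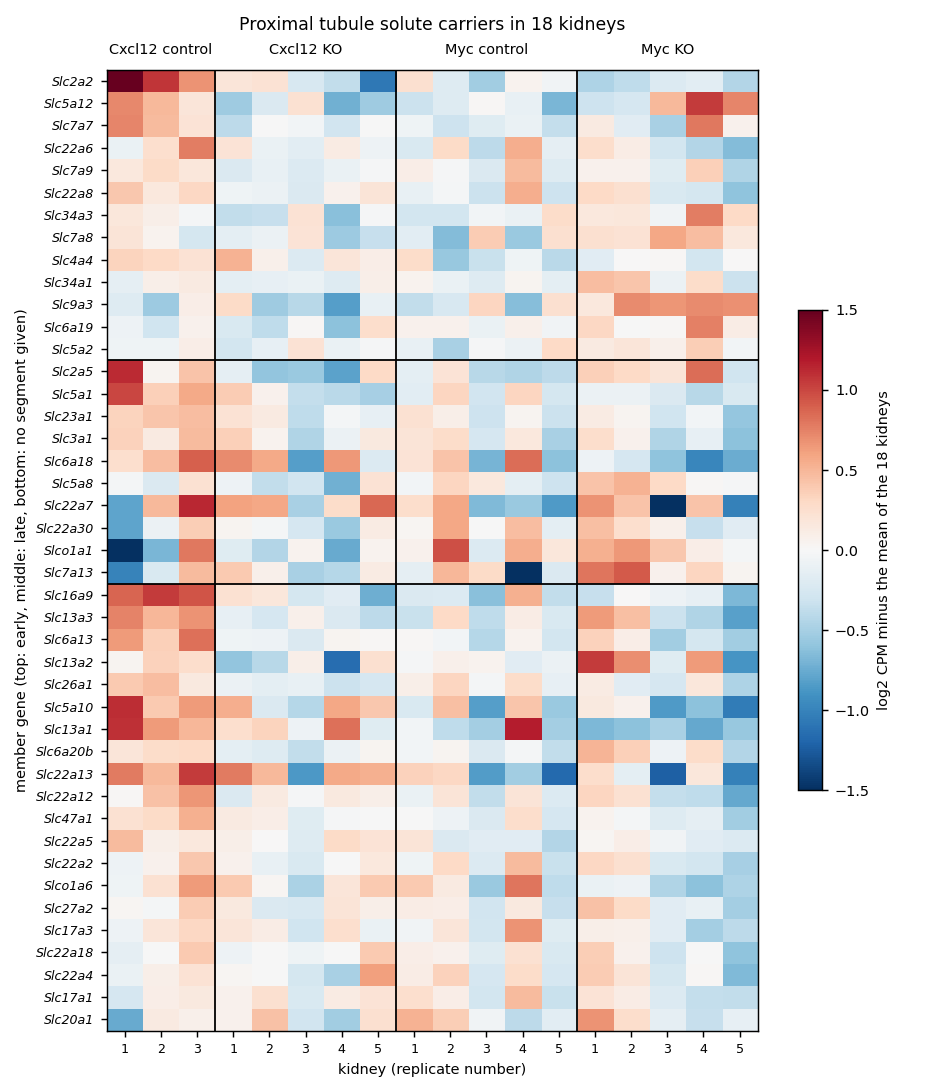
Levels of the 43 carriers in 18 kidneys, as log2 CPM minus the mean of the 18 kidneys for each gene (color scale, log2 units). Columns are kidneys by group with their replicate number, and rows are genes, early at the top, late in the middle and without a segment at the bottom, each block sorted by the *Cxcl12* KO effect. The 3 *Cxcl12* control columns are the reddest for *Slc2a2* and *Slc16a9*, and the rows of late genes differ more between kidneys of one group than those of early genes.

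In the *Cxcl12* cohort, most carriers were fitted lower in KO than in control kidneys. The fitted log2 fold change was below 0 for 40 of 43 genes, with a median of -0.29, whereas it was below 0 for 49.8% of the 15154 genes tested, with a median of 0.00. With limma-voom 37 carriers were lower and 6 higher, beside 7810 of 15154 genes lower. Some carriers fitted near 0 turned above 0 when single kidneys were left out. With edgeR's quasi-likelihood test no gene of the whole table passed an adjusted p of 0.05 (0 of 43 carriers, background 0.0%). At an unadjusted p under 0.05, 16 of 43 carriers were lower and 0 were higher, against 13.0% of all genes in either direction, 6.63% lower and 6.41% higher. DESeq2 called 11 carriers, all lower, against 2.49% of all genes in either direction and 1.44% lower: *Slc7a7*, *Slc5a1*, *Slc13a3*, *Slc6a20b*, *Slc2a2*, *Slc2a5*, *Slc6a13*, *Slc7a9*, *Slc16a9*, *Slc5a12* and *Slc26a1*. With the mapping group as a covariate, edgeR called 7 carriers, against 0.812% of all genes. Since no *Cxcl12* control kidney was in the deeper group, this fit drew its KO effect only from kidneys outside that group. Without a filter on low counts edgeR called 9, against 0.765%, and limma-voom called 0. In 10 carriers the 5 KO kidneys were lower than each of the 3 control kidneys, as in 4.72% of all genes, and in 0 carriers the order was opposite (background 4.96%).

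The carriers were split in the *Myc* cohort. Of 43 genes, 24 were fitted lower and 19 higher in KO kidneys, with a median log2 fold change of -0.05, beside 50.1% lower of the 14936 genes tested. edgeR called 0 carriers (background 1.65%, 246 genes), and 8 had an unadjusted p under 0.05, of which 5 were higher and 3 lower, against 21.9% of all genes, 10.6% higher and 11.2% lower. DESeq2 called *Slc9a3* alone, against 9.03% of all genes, and limma-voom called 0 (background 1.44%). The KO kidneys of no carrier lay wholly above or below the control kidneys, although 3.92% of all genes had them below and 2.05% above.

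**Figure D2:**
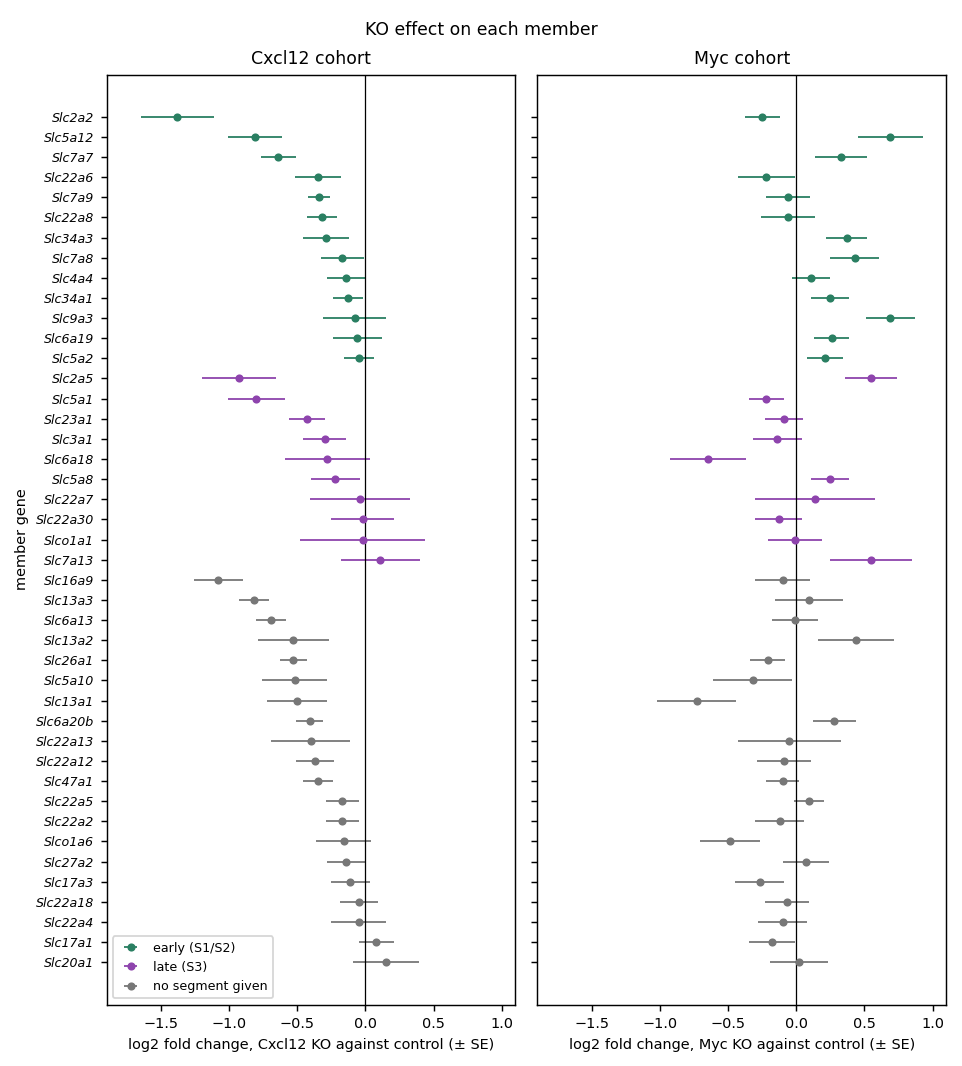
Log2 fold change of KO against control kidneys (points) with its standard error (bars) for each carrier, in the *Cxcl12* cohort (left) and the *Myc* cohort (right), in the same order of genes. Points left of the line at 0 were lower in KO kidneys: 40 of 43 on the left panel and 24 of 43 on the right.

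Among the glucose and sugar carriers, *Slc2a2*, the basolateral facilitator that releases glucose to the blood, had the largest *Cxcl12* KO effect. It was measured at 244, 163 and 123 CPM in the control and 87.4, 89.8, 65.1, 59.8 and 36.5 CPM in the KO kidneys. Every control kidney lay above every KO kidney, and the log2 fold change was -1.38 ± 0.27 SE, edgeR adjusted p = 0.094. The *Myc* kidneys, at 91.0, 67.2, 53.5, 80.2 and 74.4 CPM (control) and 55.9, 59.0, 66.8, 69.2 and 56.7 CPM (KO), overlapped, with a log2 fold change of -0.25 ± 0.13 SE, edgeR adjusted p = 0.26. *Slc2a5*, the apical fructose carrier of late segments, was measured at 39.1, 18.4 and 24.1 CPM in *Cxcl12* control and 16.1, 11.6, 11.9, 9.99 and 21.9 CPM in *Cxcl12* KO kidneys. KO kidney 5 lay above the lowest control kidney, and the log2 fold change was -0.93 ± 0.27 SE, edgeR adjusted p = 0.21. *Slc2a5* leaned the other way in the *Myc* cohort, at 16.1, 20.6, 13.2, 12.9 and 13.5 CPM in control and 22.9, 22.1, 20.4, 32.3 and 14.3 CPM in KO kidneys, with a log2 fold change of 0.55 ± 0.19 SE, edgeR adjusted p = 0.14. Without *Cxcl12* control kidney 1, the highest of its group, the *Cxcl12* value of *Slc2a5* was -0.57. *Slc5a1*, the high-affinity glucose carrier, was measured at 129.9, 82.9 and 96.1 CPM in *Cxcl12* control and 84.5, 67.7, 50.2, 48.5 and 45.5 CPM in *Cxcl12* KO kidneys, and only KO kidney 1 lay within the control range (-0.80 ± 0.21 SE, edgeR adjusted p = 0.16). *Slc5a2*, which takes up most of the filtered glucose, differed little in either cohort, with log2 fold changes of -0.05 and 0.21. *Slc5a10*, a carrier of mannose and fructose, was at 82.2, 132, 54.1, 129 and 65.5 CPM in *Myc* control and 107, 101, 53.3, 62.8 and 46.3 CPM in *Myc* KO kidneys, which overlapped widely (-0.32 ± 0.29 SE, edgeR adjusted p = 0.54), and its log2 fold change in the *Cxcl12* cohort was -0.52, or -0.30 without control kidney 1. The *Myc* value of *Slc5a10* was -0.16 without control kidney 2, -0.17 without control kidney 4, -0.19 without KO kidney 5 and -0.49 without KO kidney 1. All 5 sugar carriers were thus fitted lower in *Cxcl12* KO kidneys, and 3 of 5 in *Myc* KO kidneys.

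The 5 monocarboxylate and citrate carriers had a median of -0.81 in the *Cxcl12* cohort, next to -0.80 for the sugar carriers, and all 5 were fitted lower. *Slc16a9*, a basolateral carrier of the monocarboxylate family, was measured at 58.9, 66.1 and 61.8 CPM in *Cxcl12* control and 37.2, 35.8, 26.4, 28.2 and 19.0 CPM in *Cxcl12* KO kidneys. The groups did not overlap, and the log2 fold change was -1.08 ± 0.18 SE, edgeR adjusted p = 0.067. *Slc13a3*, the basolateral carrier of citrate and other dicarboxylates, was at 409, 344 and 388 CPM in control and 225, 205, 258, 209 and 186 CPM in KO kidneys, again without overlap. Its log2 fold change was -0.82 ± 0.11 SE, edgeR adjusted p = 0.062, the smallest p-value of the 43 carriers. *Slc13a2*, the apical citrate carrier, was at 15.1, 18.7 and 17.6 CPM in control and 9.55, 10.9, 15.6, 6.33 and 17.3 CPM in KO kidneys, where 2 KO kidneys reached the control range (-0.53 ± 0.26 SE, edgeR adjusted p = 0.42). The lactate carrier *Slc5a12* was at 106, 90.0 and 72.9 CPM in control and 44.2, 55.1, 75.5, 38.7 and 44.2 CPM in KO kidneys, where KO kidney 3 lay within the control range (-0.81 ± 0.20 SE, edgeR adjusted p = 0.13). *Slc5a8*, the apical lactate carrier of late segments, had a log2 fold change of -0.22 for *Cxcl12* and 0.25 for *Myc*. Of the 5 genes 4 were fitted higher in *Myc* KO kidneys. *Slc5a12* was at 51.3, 56.2, 64.8, 59.6 and 39.8 CPM in *Myc* control and 51.6, 53.8, 90.4, 134 and 107 CPM in *Myc* KO kidneys. KO kidneys 3, 4 and 5 exceeded all control kidneys and the other 2 did not (0.69 ± 0.24 SE, edgeR adjusted p = 0.14). *Slc13a3* ranged more widely in *Myc* KO kidneys, at 380.0, 335, 196, 179 and 138 CPM, than in *Myc* control kidneys, at 194, 301, 188, 264 and 209 CPM, and its log2 fold change was 0.09. *Slc13a2* was at 30.8, 24.1, 12.8, 23.1 and 7.71 CPM in *Myc* KO and 14.4, 15.4, 15.2, 13.0 and 13.7 CPM in *Myc* control kidneys (0.44 ± 0.28 SE, edgeR adjusted p = 0.38, or 0.23 without KO kidney 1), and 3 KO kidneys lay above and 2 below all control kidneys.

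**Figure D3:**
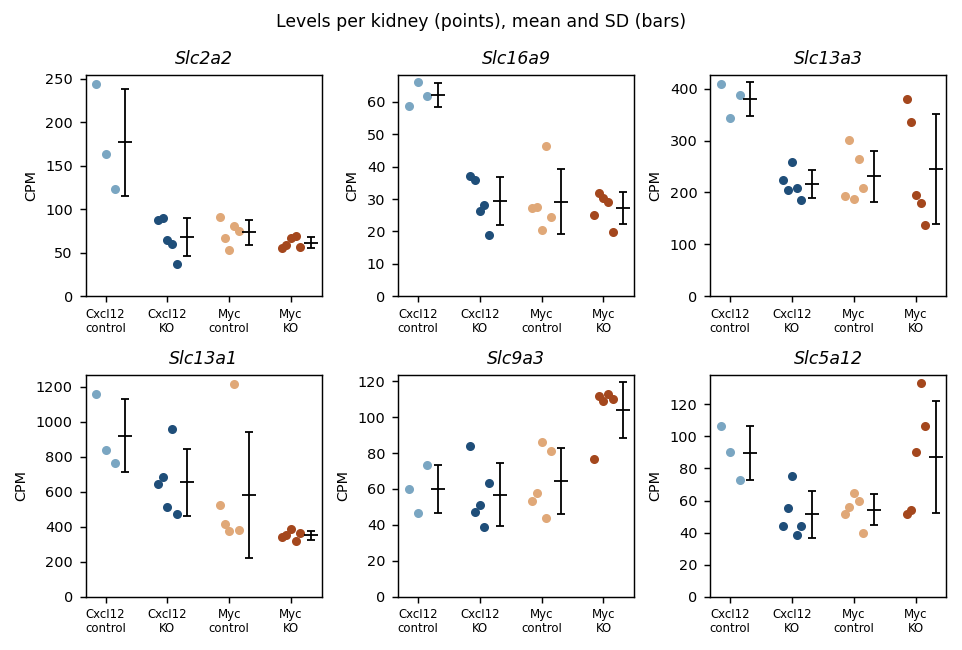
CPM of 6 carriers in each kidney (points) by group, with the group mean and SD (bar at the right of each group), on linear axes from 0. The upper row shows *Slc2a2*, *Slc16a9* and *Slc13a3*, for which the 3 *Cxcl12* control kidneys lie above the 5 *Cxcl12* KO kidneys, and the lower row *Slc13a1*, *Slc9a3* and *Slc5a12*, which had the most negative and the most positive log2 fold changes in the *Myc* cohort.

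Of the 9 amino acid carriers 8 were fitted lower in *Cxcl12* KO kidneys, beside 49.8% of all genes. In 4 of them the KO kidneys lay wholly below the control kidneys, beside 4.72% of all genes. *Slc6a13*, which takes up GABA and taurine, was at 63.6, 52.2 and 72.5 CPM in control and 39.0, 38.6, 34.9, 41.9 and 41.1 CPM in KO kidneys, with a log2 fold change of -0.69 ± 0.11 SE, edgeR adjusted p = 0.065. *Slc7a7*, the basolateral exchanger for cationic amino acids, was at 107, 89.0 and 73.8 CPM in control and 48.6, 63.3, 61.8, 52.1 and 63.6 CPM in KO kidneys (-0.64 ± 0.13 SE, edgeR adjusted p = 0.094). *Slc7a9*, the cystine exchanger, fitted at -0.34, and *Slc6a20b*, a member of the imino acid carrier family, at -0.41, completed the group without overlap. *Slc3a1*, the heavy chain that brings *Slc7a9* to the brush border, had a log2 fold change of -0.30, with overlapping groups. The 2 neighbours *Slc6a18* and *Slc6a19* differed in direction in *Myc* KO kidneys. *Slc6a18*, a late neutral amino acid carrier, was at 719.7, 839.6, 387, 1123 and 407 CPM in control and 595, 524, 410.0, 317 and 373 CPM in KO kidneys. The 2 control kidneys with the lowest values, 3 and 5, lay within the KO range, and the log2 fold change was -0.65 ± 0.28 SE, edgeR adjusted p = 0.21, or -0.41 without control kidney 4. *Slc6a19*, the early neutral amino acid carrier, had a log2 fold change of 0.26. *Slc7a13*, a late partner of *Slc3a1* that carries aspartate, glutamate and cystine, was at 107, 165, 143, 40.5 and 100.4 CPM in control and 205, 221, 123, 147 and 120.3 CPM in KO kidneys. Control kidney 4 was the lowest of all 18 kidneys for *Slc7a13*, and the log2 fold change was 0.55 ± 0.30 SE, edgeR adjusted p = 0.3, or 0.34 without that kidney. *Cxcl12* kidneys had *Slc7a13* at 58.2, 100.1 and 162 CPM (control) and 154, 124, 83.1, 86.9 and 127 CPM (KO), one of 3 carriers fitted above 0, at 0.11 ± 0.29 SE, edgeR adjusted p = 0.91. The large neutral amino acid exchanger *Slc7a8* had a log2 fold change of -0.17 for *Cxcl12* and 0.43 for *Myc*.

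The organic anion and urate carriers had smaller fitted values. All 8 were fitted lower in *Cxcl12* KO kidneys, with a median of -0.24 and values from -0.40 to -0.02, and 7 of 8 in *Myc* KO kidneys, with a median of -0.08. With limma-voom 5 were lower and 3 higher in the *Cxcl12* cohort, up to 0.39, at the same median. *Slc22a12* was measured at 495, 663 and 778 CPM in *Cxcl12* control and 421, 537, 484, 543 and 519 CPM in *Cxcl12* KO kidneys, where KO values lay within or below the lower part of the control range (-0.37 ± 0.14 SE, edgeR adjusted p = 0.32), and the value was -0.22 without control kidney 3. In *Myc* kidneys it was at 456, 559, 378, 560.1 and 426 CPM (control) and 613, 573, 381, 377 and 286 CPM (KO), which overlapped (-0.09 ± 0.20 SE, edgeR adjusted p = 0.81). The basolateral exchangers *Slc22a6* and *Slc22a8*, through which drugs and hippurate enter the cell, had log2 fold changes of -0.35 and -0.32 for *Cxcl12* and -0.22 and -0.06 for *Myc*. The *Cxcl12* value of *Slc22a6* ran from -0.53 without control kidney 1 to -0.09 without control kidney 3. *Slco1a6*, an organic anion carrier, was at 142, 119, 73.4, 188 and 83.1 CPM in *Myc* control and 101, 103, 79.1, 70.5 and 78.2 CPM in *Myc* KO kidneys. Its log2 fold change was -0.49 ± 0.22 SE, edgeR adjusted p = 0.23, or -0.27 without control kidney 4. The related gene *Slco1a1* spread widely in *Cxcl12* control kidneys, at 24.4, 63.5 and 178 CPM, and its standard error of 0.46 was the largest of the 43 in that cohort. *Slc22a7*, *Slc22a13* and *Slc22a30* had log2 fold changes from -0.40 to -0.02 for *Cxcl12* and from -0.13 to 0.14 for *Myc*.

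All 5 organic cation and carnitine carriers were fitted lower in *Cxcl12* KO kidneys, from -0.35 to -0.05. *Slc47a1*, which exports cations into the urine in exchange for protons, was the only one without overlap, at 373, 387 and 462 CPM in control and 350.0, 341, 279.7, 315 and 317 CPM in KO kidneys (-0.35 ± 0.11 SE, edgeR adjusted p = 0.22). *Slc22a2*, the basolateral cation entry path, and the carnitine carrier *Slc22a5* both had -0.17, and *Slc22a4* and *Slc22a18* both had -0.05. For *Myc* the 5 values lay between -0.12 and 0.09.

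Among the phosphate and sulfate carriers, *Slc26a1*, the basolateral sulfate exchanger, was at 54.7, 57.3 and 45.9 CPM in *Cxcl12* control and 39.0, 37.3, 38.5, 33.0 and 34.7 CPM in *Cxcl12* KO kidneys, without overlap (-0.53 ± 0.10 SE, edgeR adjusted p = 0.086). *Slc13a1*, the apical sulfate carrier, was at 1157, 838 and 764 CPM in *Cxcl12* control and 641, 681, 511, 956 and 474 CPM in *Cxcl12* KO kidneys, where KO kidney 4 lay within the control range (-0.50 ± 0.22 SE, edgeR adjusted p = 0.37), and the value was -0.30 without control kidney 1. Among *Myc* kidneys *Slc13a1* had the most negative log2 fold change of the 43, at 523, 412, 377, 1217 and 379 CPM in control and 338, 353, 385, 316 and 363 CPM in KO kidneys. KO kidney 3 reached the lowest control kidneys and the other 4 lay below them, the log2 fold change was -0.73 ± 0.29 SE, edgeR adjusted p = 0.18, and without control kidney 4 it was -0.27. The phosphate carrier *Slc34a1* differed little, at 1753, 2040.3 and 2113 CPM in *Cxcl12* control, 1734, 1771, 1789.6, 1681 and 2039 CPM in *Cxcl12* KO, 1999, 1791, 1676, 1983 and 1734 CPM in *Myc* control and 2643, 2558, 1811, 2328 and 1534 CPM in *Myc* KO kidneys. Both comparisons overlapped, with log2 fold changes of -0.13 and 0.25. *Slc34a3*, its partner in early segments, had -0.29 and 0.37, the latter 0.22 without KO kidney 4. *Slc20a1*, a housekeeping phosphate carrier, was at 153, 284 and 271 CPM in *Cxcl12* control and 269.5, 349.7, 211, 179 and 306 CPM in *Cxcl12* KO kidneys (0.15 ± 0.24 SE, edgeR adjusted p = 0.82). *Slc17a1*, which carries urate and phosphate at the brush border, was at 304, 387 and 400.2 CPM (control) and 379.9, 427, 309, 395 and 417 CPM (KO) (0.08 ± 0.13 SE, edgeR adjusted p = 0.83). With *Slc7a13*, these were the 3 carriers fitted above 0 in the *Cxcl12* cohort, and each of these values was smaller than its standard error. *Slc17a3* had -0.11 and -0.27.

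Of the acid-base carriers, *Slc9a3*, the sodium-proton exchanger that drives bicarbonate reabsorption, had the smallest p-value of the carriers in the *Myc* cohort. It was measured at 53.1, 57.9, 86.1, 43.8 and 80.9 CPM in control and 76.4, 112, 109, 113 and 110.2 CPM in KO kidneys. KO kidneys 2 to 5 lay above all control kidneys, and KO kidney 1 lay within their range. The log2 fold change was 0.69 ± 0.18 SE, edgeR adjusted p = 0.07, and DESeq2 gave an adjusted p of 0.00596. *Cxcl12* kidneys had *Slc9a3* at 60.0, 46.8 and 73.6 CPM (control) and 83.8, 47.4, 51.2, 38.6 and 63.4 CPM (KO), with a log2 fold change of -0.08. The basolateral bicarbonate carrier *Slc4a4* had -0.14 and 0.11. *Slc23a1*, the vitamin C carrier, was at 135, 143 and 148 CPM in *Cxcl12* control and 125, 118, 81.6, 105 and 97.8 CPM in *Cxcl12* KO kidneys, without overlap (-0.43 ± 0.13 SE, edgeR adjusted p = 0.2). *Slc27a2* was at 1543, 1486 and 1975 CPM in *Cxcl12* control, 1676, 1303, 1281, 1740.5 and 1609.5 CPM in *Cxcl12* KO, 1641, 1625, 1241, 1680.2 and 1192 CPM in *Myc* control and 2050.4, 1854, 1344, 1403 and 1065 CPM in *Myc* KO kidneys, and both comparisons overlapped (-0.14 and 0.07).

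Early and late genes were compared next. In the *Cxcl12* cohort the median log2 fold change was -0.29 over the 13 early genes, all fitted lower. It was -0.25 over the 10 late genes, 9 of them lower (6 of 10 with limma-voom). The difference of -0.04 was small, and it was -0.20 without control kidney 3 and 0.17 without control kidney 1, so the data gave no direction for it. For *Myc* the early median was 0.25, with 9 of 13 genes higher, and the late median -0.05, with 4 of 10 higher. The early median was thus 0.30 above the late median, but 0.06 within the deeper group, against 0.28 outside it. It was 0.15 without control kidney 2, 0.17 without KO kidney 4, up to 0.36 without control kidney 3, and 0.18 with wider segment lists. Per kidney, the median of the early genes, each centred on its mean over all 18 kidneys in log2 CPM, was 0.16, 0.17 and 0.17 in *Cxcl12* control and -0.29 to -0.02 in *Cxcl12* KO kidneys. It was -0.20 to -0.07 in *Myc* control and -0.06 to 0.37 in *Myc* KO kidneys. Neither pair of groups overlapped in this median, although the gap in the *Myc* cohort was only that between -0.07 and -0.06 and no single early gene separated its groups. The late median overlapped in both cohorts, at 0.09 to 0.47 against -0.42 to 0.29 for *Cxcl12* and -0.31 to 0.38 against -0.27 to 0.39 for *Myc*. The segment lists and the list medians were described without a test.

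**Figure D4:**
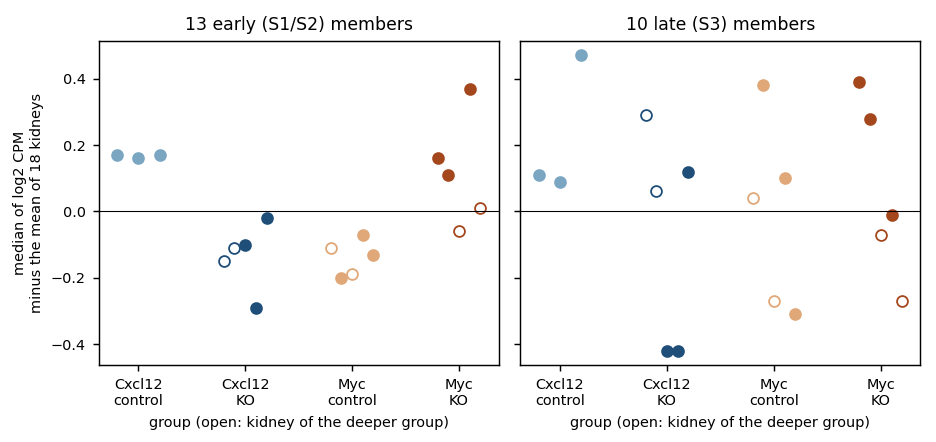
Median over 13 early (left) and 10 late (right) carriers of log2 CPM minus the mean of the 18 kidneys, for each kidney by group. Open circles are kidneys of the deeper group. The 3 *Cxcl12* control kidneys lie together on the left panel at 0.16 to 0.17, above all *Cxcl12* KO kidneys, while late medians spread over each group.

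The difference between the KO effects, as the *Myc* log2 fold change minus the *Cxcl12* log2 fold change, was fitted over all 18 kidneys. edgeR called 0 of 43 carriers (background 0.0692%, 11 of 15903 genes). An unadjusted p under 0.05 was reached by 13 carriers, in each of which the effect was more negative in the *Cxcl12* cohort, against 11.4% of all genes and 4.62% in that direction. DESeq2 called 4, namely *Slc7a7*, *Slc2a2*, *Slc2a5* and *Slc5a12* (background 2.45%). The largest differences were 1.49 ± 0.35 SE, edgeR adjusted p = 0.079 for *Slc5a12*, 1.48 ± 0.36 SE, edgeR adjusted p = 0.088 for *Slc2a5* and 1.13 ± 0.31 SE, edgeR adjusted p = 0.13 for *Slc2a2*. By fitted sign, 23 carriers were lower in both cohorts, 17 lower in *Cxcl12* KO and higher in *Myc* KO, 2 higher in both, and 1 (*Slc17a1*) higher in *Cxcl12* KO and lower in *Myc* KO.

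The side by side values also showed which kidneys stood apart. For *Slc2a2*, *Slc16a9*, *Slc23a1* and *Slc6a13* all 3 *Cxcl12* control kidneys lay above all other 15 kidneys, the *Myc* controls included. This was so for 4 of 43 carriers and 1.63% of all genes, and the opposite for 0 of 43 carriers and 1.67% of all genes. *Slc2a2* had 123.0 to 244.3 CPM in *Cxcl12* control kidneys and 36.5 to 91.0 CPM in the other 15. *Slc16a9* had 58.9 to 66.1 CPM against 19.0 to 46.4 CPM. *Cxcl12* KO kidneys thus had *Slc2a2* and *Slc16a9* levels within or near the range of both *Myc* groups. The cohorts differ in floxed line, and line and cohort cannot be told apart.

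The mapping group moved with part of these results. In the *Cxcl12* cohort no control kidney belonged to the deeper group, so that genotypes could not be compared within it. Among the other 3 KO and 3 control kidneys 38 of 43 carriers were lower, with a median of -0.29, and edgeR called *Slc16a9*, *Slc2a2* and *Slc5a1*, 3 of 43 against 0.535% of all genes. The 2 mapping groups of the *Myc* cohort gave different pictures. Outside the deeper group (3 against 3 kidneys) 28 carriers were higher and 15 lower, with a median of 0.12. Within it (2 against 2) 12 were higher and 31 lower, with a median of -0.19. The sign differed between the mapping groups for 22 of 43 carriers. *Slc9a3* and *Slc5a12* were higher in both, at 0.73 and 0.63 outside and 0.66 and 0.77 within the deeper group, and *Slc13a1* was lower in both, at -0.99 and -0.26. *Slc22a7* went from 0.66 outside to -1.29 within, and *Slc13a2* from 0.89 to -0.52. *Slc7a13* went from 0.91 to -0.03, and *Slc34a1* from 0.46 to -0.13. With the mapping group as a covariate over all *Myc* kidneys, 24 carriers were lower and 19 higher, with a median of -0.08. edgeR then called *Slc9a3* alone, against 6.39% of all genes. Whether the *Myc* KO effect differed between the mapping groups was not tested.

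**Figure D5:**
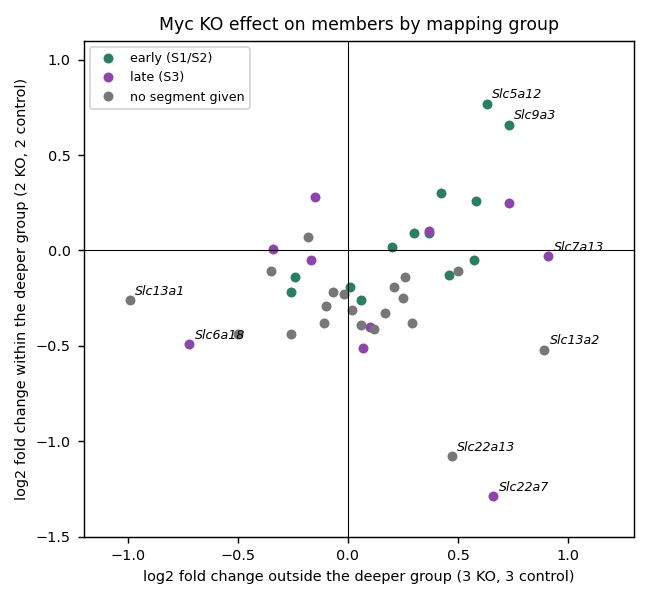
Log2 fold change of *Myc* KO against *Myc* control kidneys for each carrier, outside the deeper group (x axis, 3 against 3 kidneys) and within it (y axis, 2 against 2 kidneys), coloured by segment. Genes in the upper right (*Slc9a3*, *Slc5a12*) and lower left (*Slc13a1*, *Slc6a18*) had the same sign in both, and 22 of 43 had opposite signs.

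Genes of the same tubule that are not solute carriers of the list were read for comparison. Of 28 such genes (receptors, brush border enzymes, scaffolds, transcription factors and metabolic enzymes) 27 were fitted lower in *Cxcl12* KO kidneys, with a median of -0.25. edgeR called 0 of the 28 in either cohort. DESeq2 called 3 lower in *Cxcl12* KO kidneys, against 1.44% of all genes lower. In *Myc* KO kidneys it called 2 of the 28, both higher, against 9.03% of all genes in either direction. *Pdzk1*, the scaffold that binds several brush border carriers, had -0.59 ± 0.08 SE, edgeR adjusted p = 0.062. The transcription factor *Hnf4a* had a log2 fold change of -0.43. Of the 28 genes 13 were higher and 15 lower in *Myc* KO kidneys, with a median of -0.02. The other 265 solute carrier genes tested in the *Cxcl12* cohort had a median of -0.07, with 155 lower and 110 higher. Of these edgeR called 0 and DESeq2 called 14 lower and 3 higher, against 1.44% of all genes lower and 2.49% in either direction.

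Markers of injury and of other cell types also differed in the *Cxcl12* cohort. Of 10 tubular injury genes 9 were fitted higher in KO kidneys, of which edgeR called 0 and DESeq2 called 2, against 2.49% of all genes. *Lcn2* was at 470.7 to 613.4 CPM in control and 713.1 to 1254.5 CPM in KO kidneys. The injury gene *Havcr1* overlapped, at 548.9 to 668.1 CPM in control and 210.8 to 985.9 CPM in KO kidneys (log2 fold change 0.1). All 4 neutrophil markers were fitted higher (median log2 fold change 1.70), and their summed level was 17.1 to 23.4 CPM in control and 26.8 to 117.7 CPM in KO kidneys. All 5 red cell markers were fitted higher, at a summed 12.5 to 65.3 CPM against 36.1 to 163.4 CPM. Macrophage markers were at 57.7 to 74.1 CPM in control and 47.9 to 76.0 CPM in KO kidneys, and thick limb markers at 3135.3 to 3918.1 against 2284.1 to 4173.5 CPM, 4 of 4 fitted lower in each list. Summed levels in control and KO kidneys were 417.1 to 444.9 and 382.9 to 599.6 CPM for podocytes, 402.9 to 427.9 and 408.6 to 557.7 CPM for endothelium, 445.6 to 723.4 and 337.8 to 690.3 CPM for collecting duct, and 457.4 to 520.9 and 287.2 to 562.4 CPM for distal convoluted tubule. edgeR called 0 of the markers of other cell types, and DESeq2 called 1 collecting duct marker lower and 1 distal convoluted tubule marker higher, against 2.49% of all genes. Their part in the carrier values was not tested.

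Among *Myc* kidneys *Havcr1*, the injury molecule of the proximal tubule, was at 206.4 to 901.4 CPM in control and 72.7 to 275.4 CPM in KO kidneys (log2 fold change -1.32, edgeR adjusted p = 0.12). *Lcn2* leaned the other way, at 684.5 to 1642.2 CPM in control and 1281.2 to 1776.2 CPM in KO kidneys (log2 fold change 0.39, edgeR adjusted p = 0.27). *Slc6a18* was lowest in the control kidneys 3 and 5, the same 2 control kidneys with the lowest *Havcr1* (209.8 and 206.4 CPM), and *Slc13a1* was highest in control kidney 4, which had the highest *Havcr1* (901.4 CPM). Other carriers ran the opposite way. Among control kidneys *Slc9a3* (86.1 and 80.9 CPM) and *Slc7a8* (146 and 132 CPM) were highest in kidneys 3 and 5. *Slc7a13* was lowest in control kidney 4, at 40.5 CPM. A relation of carriers to *Havcr1* was not tested. Neutrophil markers summed to 39.6 to 204.9 CPM in control and 123.2 to 233.6 CPM in KO kidneys, endothelial markers to 394.6 to 671.3 and 551.1 to 770.4 CPM, and podocyte markers to 322.4 to 554.1 and 492.7 to 613.3 CPM. All members of these 3 lists were fitted higher in *Myc* KO kidneys. Of them edgeR called 0, against 1.65% of all genes, and DESeq2 called 2 endothelial and 1 podocyte marker, against 9.03%. Of the 10 injury genes 7 were fitted higher and 3 lower. Summed red cell markers overlapped, at 30.8 to 173.6 and 42.6 to 110.0 CPM, as did macrophage markers, at 65.4 to 84.5 and 55.9 to 87.3 CPM, thick limb markers, at 2846.3 to 4932.2 and 3432.8 to 4504.4 CPM, collecting duct markers, at 432.6 to 1014.1 and 467.9 to 709.2 CPM, and distal convoluted tubule markers, at 369.5 to 708.0 and 472.4 to 738.1 CPM. Although these sums overlapped, DESeq2 called 1 thick limb and 1 collecting duct marker lower and 1 distal convoluted tubule marker higher, against 9.03% of all genes. edgeR called 0 markers of these lists, against 1.65%. The part of all these markers in the carrier values was not tested.

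Some carriers lie side by side in the genome (GRCm38), and neighbours did not always share a direction. *Slc6a18* (chromosome 13, 73661752 to 73678023) ends 1.7 kb from *Slc6a19* (73679745 to 73704865), and their log2 fold changes in *Myc* KO kidneys were -0.65 and 0.26. *Slc22a8* (chromosome 19, 8591254 to 8611835) and *Slc22a6* (8618039 to 8628299), 6.2 kb apart, had like values in the *Cxcl12* cohort, at -0.32 and -0.35. *Slc17a3* and *Slc17a1*, 7.0 kb apart on chromosome 13, had -0.11 and 0.08 for *Cxcl12* and -0.27 and -0.18 for *Myc*. Counts ignored the strand and used uniquely mapped reads, so the values of carriers with exons that overlap another gene, among them *Slc16a9*, *Slc26a1*, *Slc7a7*, *Slc22a12* and *Slc34a1*, and of close paralogs such as *Slco1a1* and *Slco1a6*, are less certain.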

How the data were processed

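Whole kidneys of 18 mice were sequenced. The authors trimmed reads with Trimmomatic 0.32, aligned them to GRCm38 with STAR 2.4.0 and deposited raw counts per gene without normalization, in an unstranded and 2 stranded columns. The unstranded counts were used as deposited, since each strand held about equal shares, from 51.8% to 52.4%. Reads that were unmapped, multimapping, ambiguous or outside annotated genes, together 29.4% to 32.6% of all, are no gene counts. Gene names and exon lengths came from GENCODE vM21. All 33 pairs of kidneys of a group differed by more than sampling noise.

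Low counts were removed per cohort by filterByExpr. Counts were scaled by TMM, and genotypes were tested with edgeR 4.0.16 (glmQLFTest), with Benjamini-Hochberg adjustment over all genes and a threshold of 0.05. All 43 carriers passed the filter in both cohorts. The standard error (SE) is the log2 fold change divided by the square root of F. The difference of KO effects was an interaction over 18 kidneys. Alternatives used DESeq2 1.42.0, where an adjusted p of NA was left out, limma-voom (limma 3.58.1), other scaling, no filter, the first-strand column, the mapping group as a covariate, replicate blocks and leaving out each kidney. Splits by mapping group were added after seeing the data. Scripts were tested on simulated data. A further promoter motif and a transcription factor are not reported here.

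Members, segment and marker lists were chosen with earlier results of these data known. The text gives all carriers by role, and in full the 4 largest changes per direction and cohort and the 3 highest control levels. Values are also shown for most other carriers whose groups did not overlap, and for some that overlapped, such as *Slc5a1* and *Slc13a2*. *Slc7a9* and *Slc6a20b*, without overlap in the *Cxcl12* cohort, are given by log2 fold change only.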

Additional observations from a re-analysis of the deposited data

Results flagged for a closer look

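Of 48 groups of 4 or more kidneys checked for the named carriers, 3 held a kidney that lay far from the rest of its group by Dixon's test, which chance alone gives in about 1 of 20 groups. *Slc13a1* was at 1217.4 CPM in *Myc* control kidney 4, against 377.4 to 523.2 CPM in the other *Myc* control kidneys. *Slc16a9* was at 46.4 CPM in the same kidney, against 20.4 to 27.5 CPM. *Slc9a3* was at 76.4 CPM in *Myc* KO kidney 1, against 108.8 to 112.8 CPM in the other *Myc* KO kidneys. Without these kidneys the *Myc* log2 fold changes were -0.27 for *Slc13a1* and 0.79 for *Slc9a3*. That of *Slc16a9* changed sign, from -0.1 to 0.13.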

How the results depend on the processing

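The number of carriers called depended on the test. In the *Cxcl12* cohort edgeR called 0, DESeq2 11 (2.49% of all genes), edgeR without a filter on low counts 9 (0.765%), with the mapping group as a covariate 7 (0.812%), without the deeper group 3 (0.535%), with the first-strand column 1 (*Slc13a3*, 0.0611%), in a fit over all 18 kidneys 1 (*Slc2a2*, 0.157%), and between 0 and 1 when single kidneys were left out (*Slc16a9* without KO kidney 1, 0.0994%). In the *Myc* cohort DESeq2 (9.03% of all genes) and the covariate (6.39%) each called 1 and leaving out kidneys 0 to 1 (without control kidney 3, 5.8%), each time *Slc9a3*, so that 1 of 43 carriers was below the share of all genes. For the difference of KO effects DESeq2 called 4 (2.45%), and leaving out kidneys 0 to 2 (*Slc2a5* and *Slc6a20b* without *Myc* KO kidney 5, 0.473%). All calls in the *Cxcl12* cohort were lower in KO kidneys. In that cohort the covariate and the fit without the deeper group compare the same KO and control kidneys, so they are not separate checks.

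The median over the carriers in the *Cxcl12* cohort stayed below 0, from -0.34 to -0.21. In the *Myc* cohort it was -0.05, and it was 0.12 without the deeper group and -0.19 within it, while the early minus late difference fell from 0.30 to 0.06 within it. The per-kidney scores of both measures had an SD of 0.27 over *Myc* KO kidneys. That SD is a spread between kidneys and not the error of a KO against control median, so it cannot judge these moves, which were not tested. Directions turned for some carriers. In the *Cxcl12* cohort *Slc20a1* was -0.03 with the covariate and -0.04 without the deeper group, and -0.08 to 0.31 when single kidneys were left out. The covariate fit and the fit without the deeper group drew their KO effect from the same kidneys here. *Slc7a13* was -0.12 under both, and -0.19 to 0.53 without single kidneys, and *Slc17a1* ran from -0.03 to 0.15, with control kidney 1 giving the lowest value of all 3 genes. Carriers fitted just below 0 turned without *Cxcl12* control kidney 3, among them *Slco1a1* from -0.02 to 0.98, *Slc22a7* from -0.04 to 0.44 and *Slc22a30* from -0.02 to 0.28. In the *Myc* cohort *Slc22a12* was 0.02 without the deeper group and -0.23 to 0.03 without single kidneys. *Slc27a2* was -0.25 within the deeper group and -0.06 to 0.17 without single kidneys, *Slc34a1* was -0.13 and *Slc7a13* -0.03 within the deeper group. The cause was not tested.

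For kidneys of equal replicate number the correlation of their deviations was between -0.03 and 0.13 for *Cxcl12* and between -0.21 and 0.40 for *Myc*. For unequal numbers it was between -0.13 and 0.19 and between -0.52 and 0.48. With 3 and 5 pairs of equal number, this showed no pairing but could not exclude it. With the replicate block 0 carriers were called in either cohort (background 0.0% for *Cxcl12* and 0.121% for *Myc*). The *Cxcl12* block fit left out KO kidneys 4 and 5, which have no control kidney of equal number, and its median was -0.32. With so few kidneys left, its 0 calls cannot be compared with those of the full fit. With 3 control kidneys in the *Cxcl12* cohort and 2 against 2 within the deeper group, small differences could not be resolved.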
